A study of Mus musculus with 25 samples.

Results

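The nuclear genes for subunits of the mitochondrial oxidative phosphorylation (OXPHOS) machinery were read in RNA sequencing of mouse *soleus*, a calf muscle rich in slow oxidative fibres. Members were the genes of the count table whose symbols begin with *Ndufa*, *Ndufb*, *Ndufc*, *Ndufs* or *Ndufv* and a digit, are *Sdha* to *Sdhd* or *Cyc1*, or begin with *Uqcr*, *Cox4* to *Cox8* or *Atp5*. Of 97 matching symbols, 8 with the pseudogene mark -ps were dropped, which left 89 members among 52636 genes. They comprised 40 genes of complex I, 4 of complex II, 9 of complex III, 19 of complex IV and 17 of complex V. In 4 of them (*Ndufa11b*, *Ndufb4c*, *Ndufs6b* and *Cox6c2*) the annotation marks a processed pseudogene, and the other 85 are protein coding. The symbol decides the complex, so *Ndufa4*, a protein now placed in complex IV, stood under complex I, and *Cox7a2l* and *Atp5s*, an organiser of supercomplexes and a coupling factor, stood beside true subunits. *Ndufb1-ps*, which the annotation treats as a non-coding RNA, was dropped by its name although it held 145904 reads, and *Ndufab1* carries no digit at that place and was read in another gene list.

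OXPHOS couples the passage of electrons to the making of ATP at the inner mitochondrial membrane. Complexes I and II take electrons from NADH and succinate, complex III passes them to cytochrome c, complex IV gives them to oxygen, and complex V (ATP synthase) uses the resulting proton gradient. Most subunits come from nuclear genes and a few, among them the catalytic cores of complexes I, III and IV, from mitochondrial DNA, and several complex IV subunits have one isoform typical of muscle and heart and another found in most tissues.

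All mice were C57BL/6 carrying floxed *Dnmt3a* alleles and were 12 weeks old. The mD3AKO mice also carried a Cre recombinase under the muscle creatine kinase promoter (mCK-Cre), which removes exon 19 of the DNA methyltransferase gene *Dnmt3a* in muscle fibres late in their differentiation. Satellite cells and other cells of the tissue may still carry the intact gene, which was not tested in this report. The controls, called WT, carried the same floxed alleles without Cre. Mice either ran for 30 minutes at 16 m per minute on a treadmill inclined by 5%, and were killed 60 minutes afterwards, or rested in the treadmill arena. The 4 groups held 5 WT mice at rest, 7 WT mice after exercise, 7 mD3AKO mice at rest and 6 mD3AKO mice after exercise, each with 1 library. Of the mice, 13 were male and 12 female, with 2 to 4 of each sex in every group. The males carry the mouse numbers 7 to 19 and the females 1 to 6 and 20 to 25, and the labels do not say what the numbers stand for, so sex and the number set 7 to 19 cannot be told apart.

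The libraries held 22671457 to 37431801 reads counted on genes, and the members took 2.34% to 3.68% of them. In mouse 15 (mD3AKO, rest, male) ribosomal and mitochondrially encoded RNA made up 43.2% of the reads, against 10.7% to 17.9% in the other 24 libraries, and this library holds the lowest member share. With those RNAs out, the share of the members was 3.35% to 4.32% over all 25 libraries. *Dnmt3a* lay at 93.4 to 131 CPM in WT mice and at 34.5 to 53.9 CPM in mD3AKO mice, so the genotypes did not overlap. *Myh7*, the slow myosin heavy chain, ranged from 8498 to 20180 CPM, and was thus present in every library. CPM are read counts scaled by library size, with library sizes adjusted by the trimmed mean of M values (TMM).

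Summed over members, complex V held 37.7% of the member CPM, complex I 27.0%, complex IV 15.7%, complex III 12.1% and complex II 7.51%. These shares hardly moved between mice. The share of complex V ranged from 36.9% to 38.2% over the 25 mice (SD 0.327 percentage points), and that of complex II from 7.20% to 7.78%. The summed level itself varied more, with a coefficient of variation of 8.94% for complex II to 10.9% for complex III. The lowest and the highest mouse differed 1.37-fold in the sum over all members, between 27374 and 37403 CPM.

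Between genes, levels were compared as RPKM, the CPM divided by the length of a gene's exons in kilobases. The median of the 84 members that passed the filter on low counts was 166 RPKM, and 48 of them lay within 2-fold of it. Complex II and complex III were the most even, with 4 of 4 and 8 of 9 members within 2-fold of their own medians, against 7 of 17 in complex IV. In complex I, *Ndufb9*, an accessory subunit of the membrane arm, was highest at 784 ± 81.0 RPKM (SD, n = 25) and *Ndufa4l2*, a paralogue of *Ndufa4* known to be induced by hypoxia, lowest at 6.09 RPKM. In complex II the iron-sulfur subunit *Sdhb* stood highest at 318 RPKM and the membrane anchor *Sdhc* lowest at 134 RPKM. Complex III ran from the small subunit *Uqcr10* at 496 RPKM to *Uqcrq* at 121 RPKM. Their mean CPM lay closer, at 290 and 221, so the order by RPKM also depends on the annotated exon length.

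The catalytic head of ATP synthase led complex V, with the alpha subunit *Atp5a1* at 1107 RPKM and the beta subunit *Atp5b* at 887 RPKM. The lowest tested member of complex V was *Atp5l*, subunit g of the membrane part, at 2.20 RPKM on a union of exons of 6443 bases. *Atp5l* also varied most in this complex, from 10.2 to 20.9 CPM. Of the short stretches of sequence in its transcripts, 14.2% also occur in other genes on either strand. How reads with several matches were treated is not given, so the level of *Atp5l* and its place as lowest are uncertain. In complex IV the highest was *Cox8b* at 1255 RPKM, level with *Cox6a2* at 1253 RPKM, whose ranges over mice overlapped. The lowest tested was *Cox6b2*, an isoform typical of testis, at 0.250 RPKM and 3 to 18 reads per library.

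**Figure D1:**
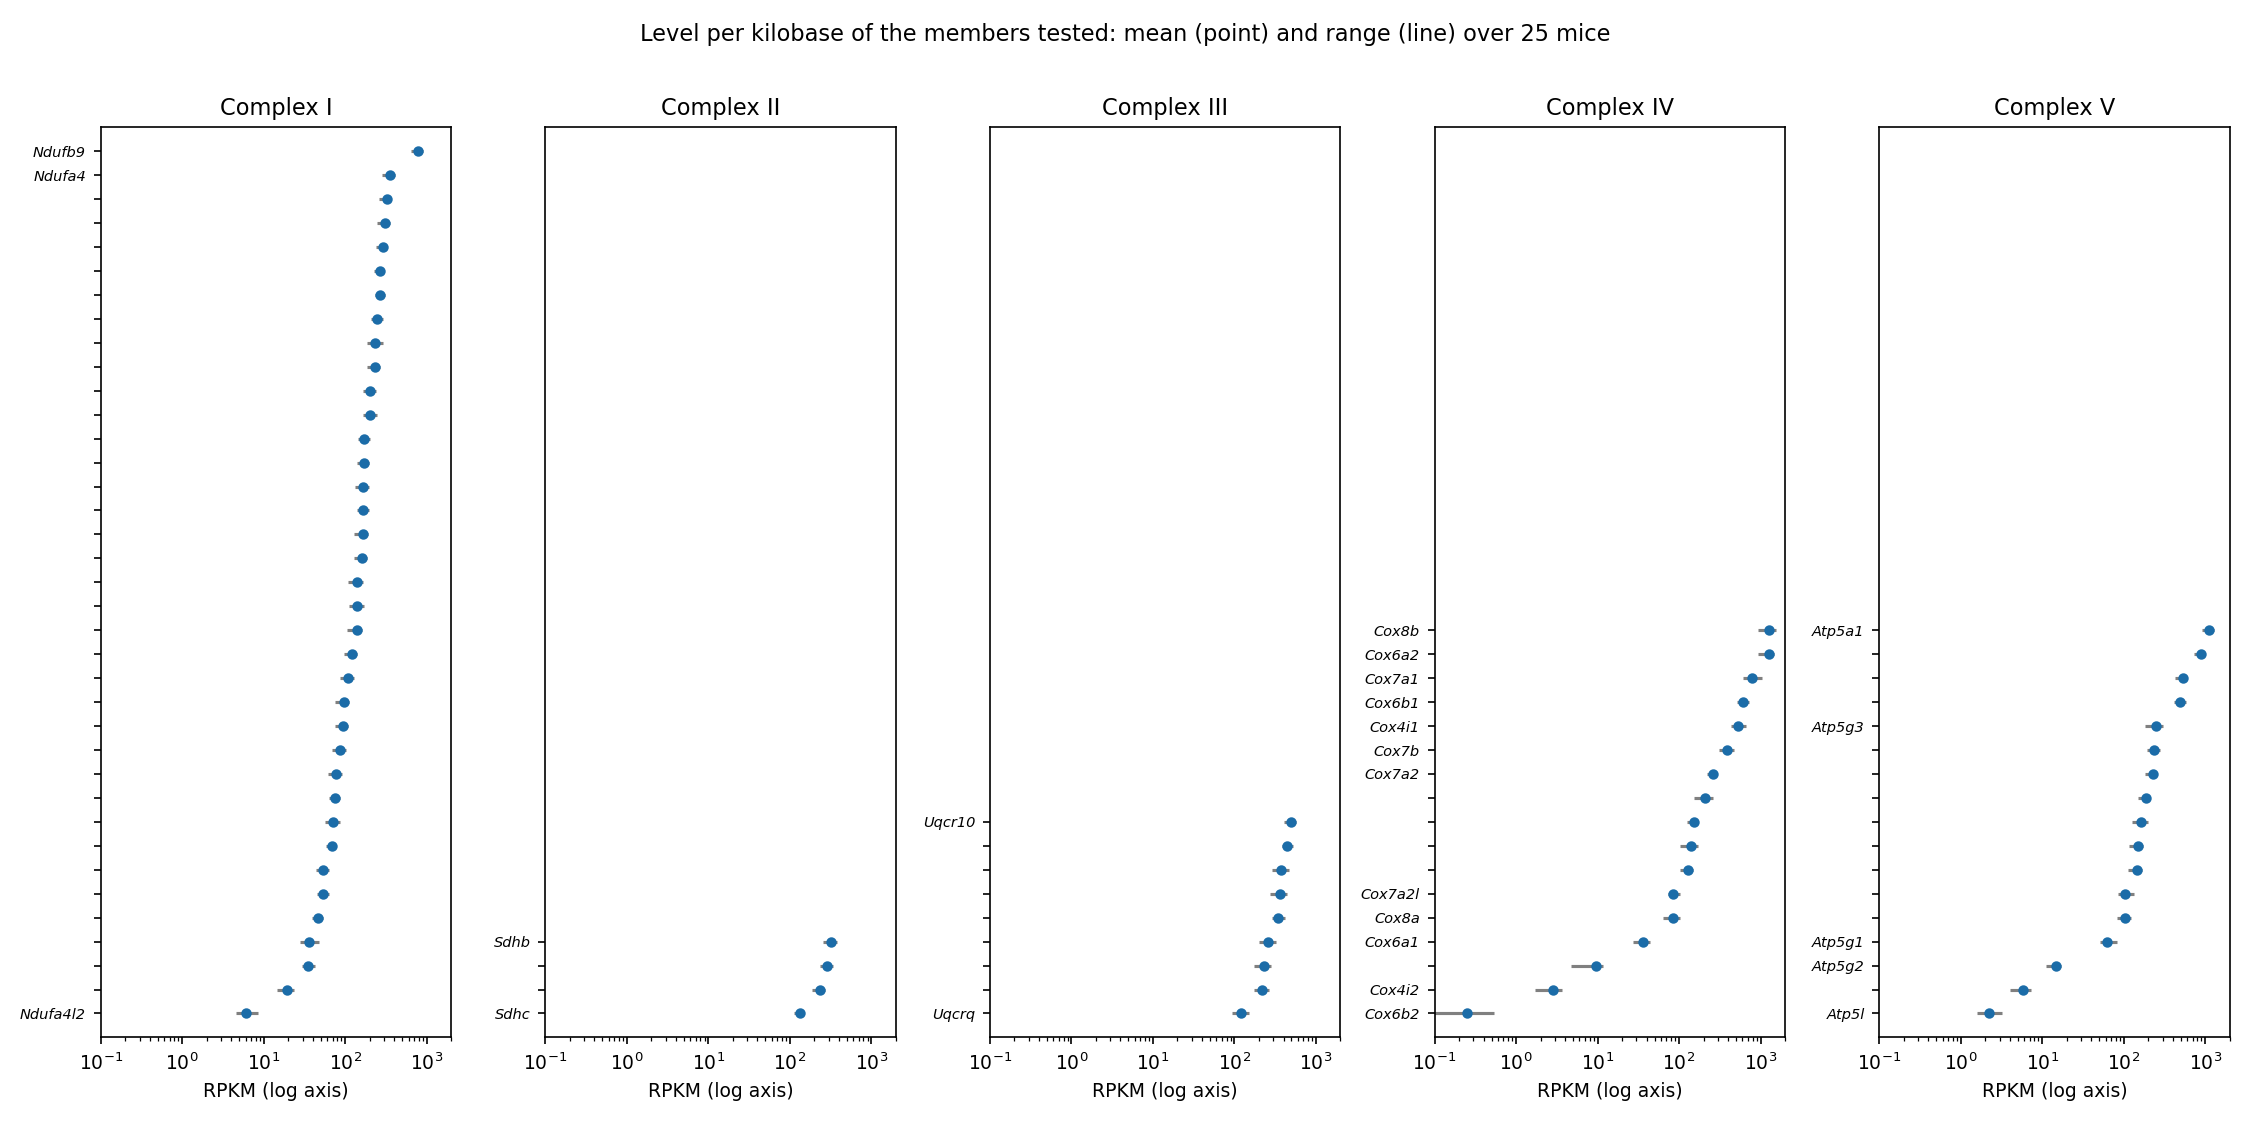
Level of each tested member in RPKM (log axis), in 1 panel per complex. Points are means and lines ranges over 25 mice, and names are given for the highest and lowest member of each complex and for isoforms. Complexes II and III span a narrow range, and complex IV runs from *Cox6b2* at 0.250 to *Cox8b* at 1255.

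The filter removed 5 members. This holds for the fit with 4 groups, and *Ndufs6b* was tested in the fit with 8 groups. *Cox8c*, an isoform typical of testis, had 0 reads in all 25 libraries, and *Cox7b2*, another testis isoform, had 22 reads in all. The other 3 were the pseudogenes *Ndufa11b* (39 reads), *Ndufb4c* (77 reads) and *Ndufs6b* (130 reads). All 360 words of 31 bases in the transcript of *Ndufb4c* also occur in *Ndufb4*, so their reads cannot be separated. Of the pseudogenes, *Cox6c2* was tested at 2.21 CPM, but 61.7% of its words occur in other genes, chiefly *Cox6c*. Among the 89 members, 45 share under 5% of their words with other genes on either strand.

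Where a complex IV subunit has a muscle and a ubiquitous isoform, the muscle isoform prevailed in every mouse. *Cox6a2* made up 97.2% ± 0.480 (SD, n = 25) of the RPKM of the *Cox6a* pair and *Cox8b* 93.6% ± 0.863 of the *Cox8* family. *Cox7a1* took 69.1% ± 2.86 of its family, beside 23.4% for the ubiquitous *Cox7a2* and 7.56% for *Cox7a2l*. *Cox4i2*, the isoform typical of lung, held 0.549% beside *Cox4i1*, *Ndufa4l2* 1.73% beside *Ndufa4*, and *Cox7b2* 0.0134% beside *Cox7b*. The 3 genes *Atp5g1*, *Atp5g2* and *Atp5g3* encode the same mature c subunit of the rotor ring with different import sequences, and *Atp5g3* gave 76.3% of their RPKM, *Atp5g1* 19.2% and *Atp5g2* 4.57%. In CPM, which are not divided by exon length, their means were 548 for *Atp5g3*, 309 for *Atp5g1* and 24.8 for *Atp5g2*. *Atp5g2* shares 40.2% of its words with other genes and *Atp5g1* 14.1%, so their levels are uncertain.

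The first 240 coding bases of the *Cox6a* pair are printed because the ubiquitous isoform is the member that stood nearest to a call after exercise. They come from GENCODE release M21 transcripts of *Cox6a1* (chr5:115345642-115348981, minus strand, GRCm38) and *Cox6a2* (chr7:128205435-128206387, minus strand), with no part capitalised:
Cox6a1: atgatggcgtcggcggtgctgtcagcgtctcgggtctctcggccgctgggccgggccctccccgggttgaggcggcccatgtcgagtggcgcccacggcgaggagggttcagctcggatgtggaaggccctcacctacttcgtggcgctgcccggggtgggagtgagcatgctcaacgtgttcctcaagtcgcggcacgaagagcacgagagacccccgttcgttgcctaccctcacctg
Cox6a2: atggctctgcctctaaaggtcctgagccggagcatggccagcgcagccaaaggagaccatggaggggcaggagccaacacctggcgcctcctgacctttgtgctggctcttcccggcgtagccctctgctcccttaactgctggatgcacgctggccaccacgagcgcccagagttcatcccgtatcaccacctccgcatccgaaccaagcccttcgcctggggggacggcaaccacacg
Over 343 aligned columns of the whole coding sequences (339 and 294 bases), 193 (56.3%) are identical, and these coding sequences share 0 words of 31 bases. The same count was 0 for the other 7 isoform pairs compared, whose identity ran from 53.4% for *Cox8a* and *Cox8b* to 68.8% for *Atp5g1* and *Atp5g2*. In *Cox6a1*, 18.5% of the words of all transcripts occur in 1 other annotated gene.

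The first comparison asked whether a single bout of running changed the members. At the level of whole complexes the groups overlapped throughout. Complex I summed to 8893 ± 871 CPM (SD, n = 5) in WT mice at rest and 8831 ± 969 CPM (n = 7) after exercise, and to 8664 ± 1069 CPM (n = 7) and 9037 ± 548 CPM (n = 6) in mD3AKO mice. Complex V gave 12394 ± 1172, 12439 ± 1268, 12097 ± 1402 and 12612 ± 648 CPM in the same order. The other complexes had the same pattern of small differences inside wide ranges, with complex IV at 5200 ± 491, 5206 ± 512, 5046 ± 690 and 5229 ± 304 CPM.

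**Figure D2:**
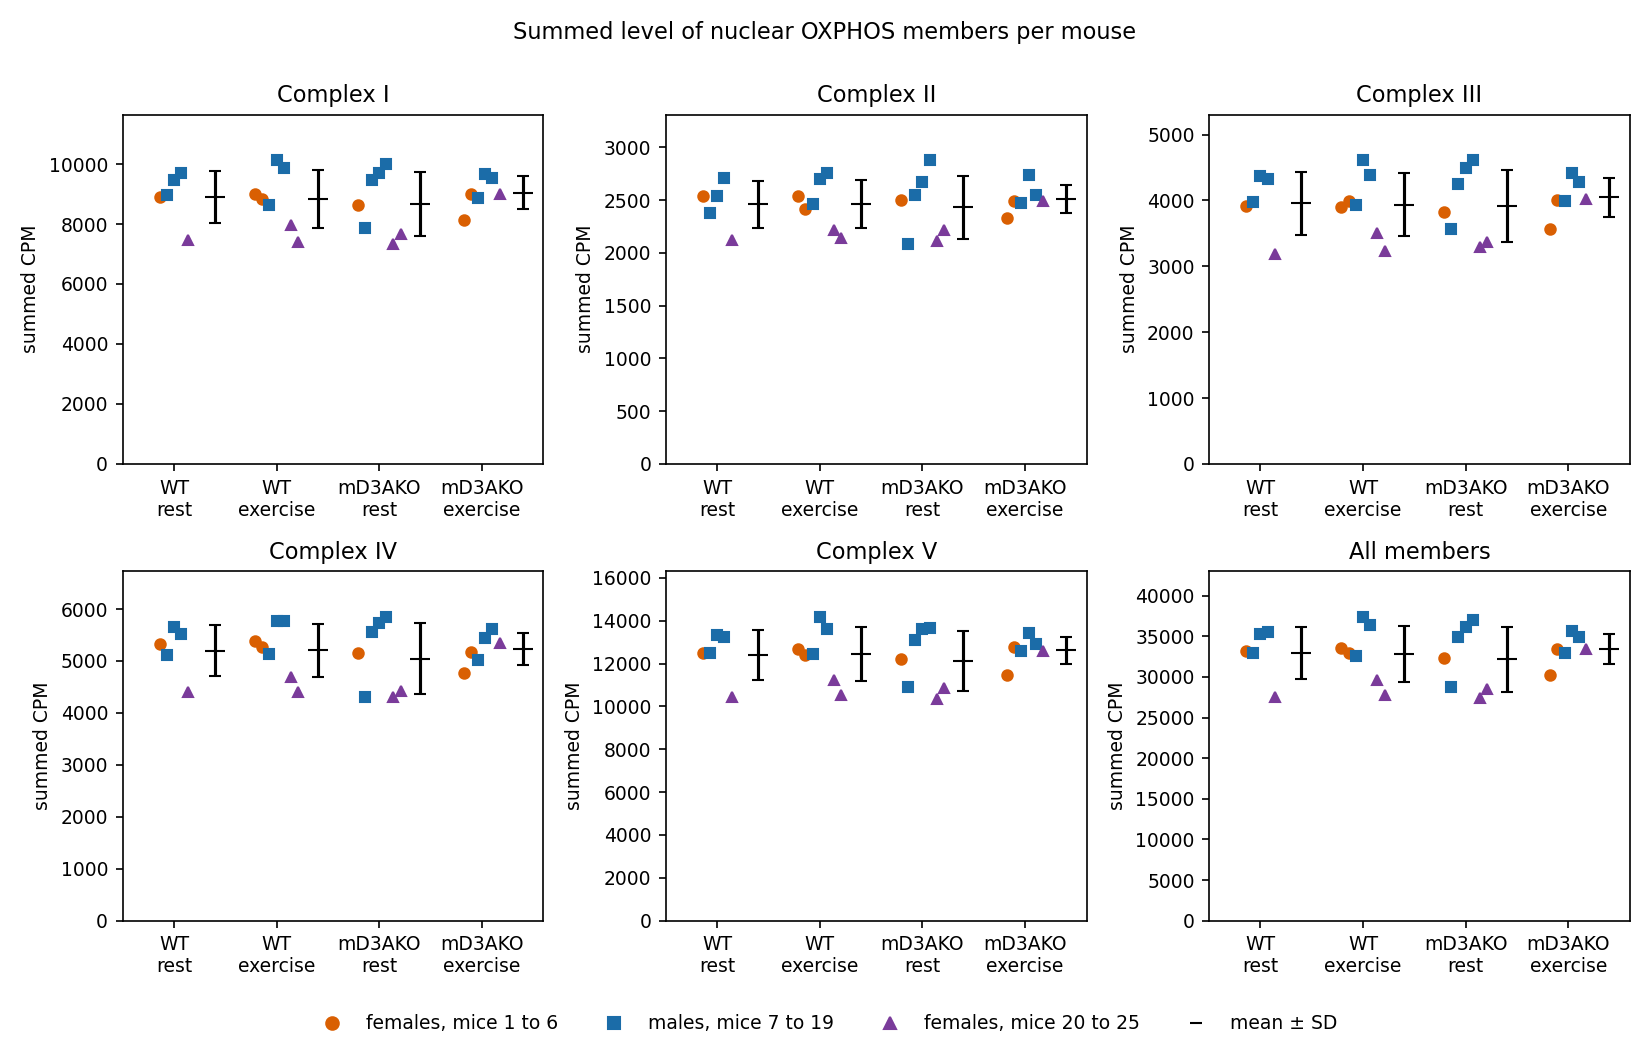
Summed CPM of the members of each complex and of all members, with 1 point per mouse in the 4 groups. Symbols mark sex and mouse number, and bars are mean ± SD. The 4 groups overlap in every panel, while females 20 to 25, apart from 1 mouse, lie low.

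No member was called after exercise at an adjusted p under 0.05 in edgeR's quasi-likelihood test, 0 of 84, whereas 10.4% of all 16340 genes tested were. At an unadjusted p under 0.05 there were 2 (21.3% of all genes), and DESeq2 also called 0. The median log2 fold change of the members was 0.026 (all genes -0.00088), and 73 of 84 lay above 0 (8117 of 16340 genes). The 3 lowest p values were those of *Cox6a1* at 0.14 ± 0.061 (adjusted p 0.16, edgeR), *Ndufa4l2* at -0.18 ± 0.084 (adjusted p 0.194) and *Ndufc2*, a membrane-arm subunit of complex I, at 0.076 (adjusted p 0.512). For 81 members the 95% interval stayed within 0.32 of 0 on the log2 scale, and the exceptions were *Ndufa4l2*, *Cox6b2* and *Atp5l*. By complex, the medians were 0.026 in I, 0.024 in II, 0.025 in III, 0.031 in IV and 0.013 in V. With upper-quartile scaling the median of the members was -0.0026 and that of all genes -0.029, so the sign of these small shifts depends on the scaling.

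*Cox6a1*, the ubiquitous isoform of a small complex IV subunit, had the lowest p after exercise. In WT mice at rest its levels were 22.9, 22.2, 25.5, 19.3 and 21.1 CPM. The 7 exercised WT mice ran from 22.3 over a median of 28.0 to 31.2 CPM. Of these, 5 lay above every rested WT mouse and 2 within the rested range. The log2 fold change in WT mice was 0.30 ± 0.089 (SE), with an adjusted p of 0.0648 by edgeR and 0.0339 by DESeq2, so the call rests on the tool. It was also called by edgeR when mouse 4, 13 or 18 was left out (adjusted p 0.0272, 0.0337 and 0.0342), and over the scaling, filter and covariate settings its adjusted p by edgeR was 0.0633 to 0.127. In mD3AKO mice *Cox6a1* had a median of 25.8 CPM at rest (22.1 to 28.4) and 24.5 CPM after exercise (22.4 to 28.1), which overlap nearly in full.

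In WT mice alone, 0 of 84 members were called by edgeR (3.59% of all genes), and 1 had an unadjusted p under 0.05 (12.3%). After *Cox6a1* came *Cox8a*, the ubiquitous isoform of another small complex IV subunit, at a log2 fold change of 0.17 ± 0.091 (adjusted p 0.485), and *Ndufc2* at 0.066. In mD3AKO mice alone, 0 of 84 were called (6.02% of all genes), 1 had an unadjusted p under 0.05 (17.6%), and DESeq2 called 0. The median member stood at 0.055 there (all genes -0.0062). *Ndufa4l2* had the lowest p at -0.31 ± 0.12 (adjusted p 0.128).

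*Ndufa4l2* ran from 6.18 over a median of 6.84 to 9.22 CPM in the 7 rested mD3AKO mice. After exercise the 6 mD3AKO mice ran from 5.02 over 5.51 to 7.64 CPM. Of these, 5 lay below every rested mD3AKO mouse, and mouse 23 lay within the rested range. Without mouse 23 the log2 fold change was -0.41 and was called by edgeR (adjusted p 0.0287). The gene rests on 92 to 309 reads per library. Next by p in mD3AKO mice were *Ndufc1*, a membrane-arm subunit, at 0.13 ± 0.081 and *Atp5l* at 0.24 ± 0.16.

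**Figure D3:**
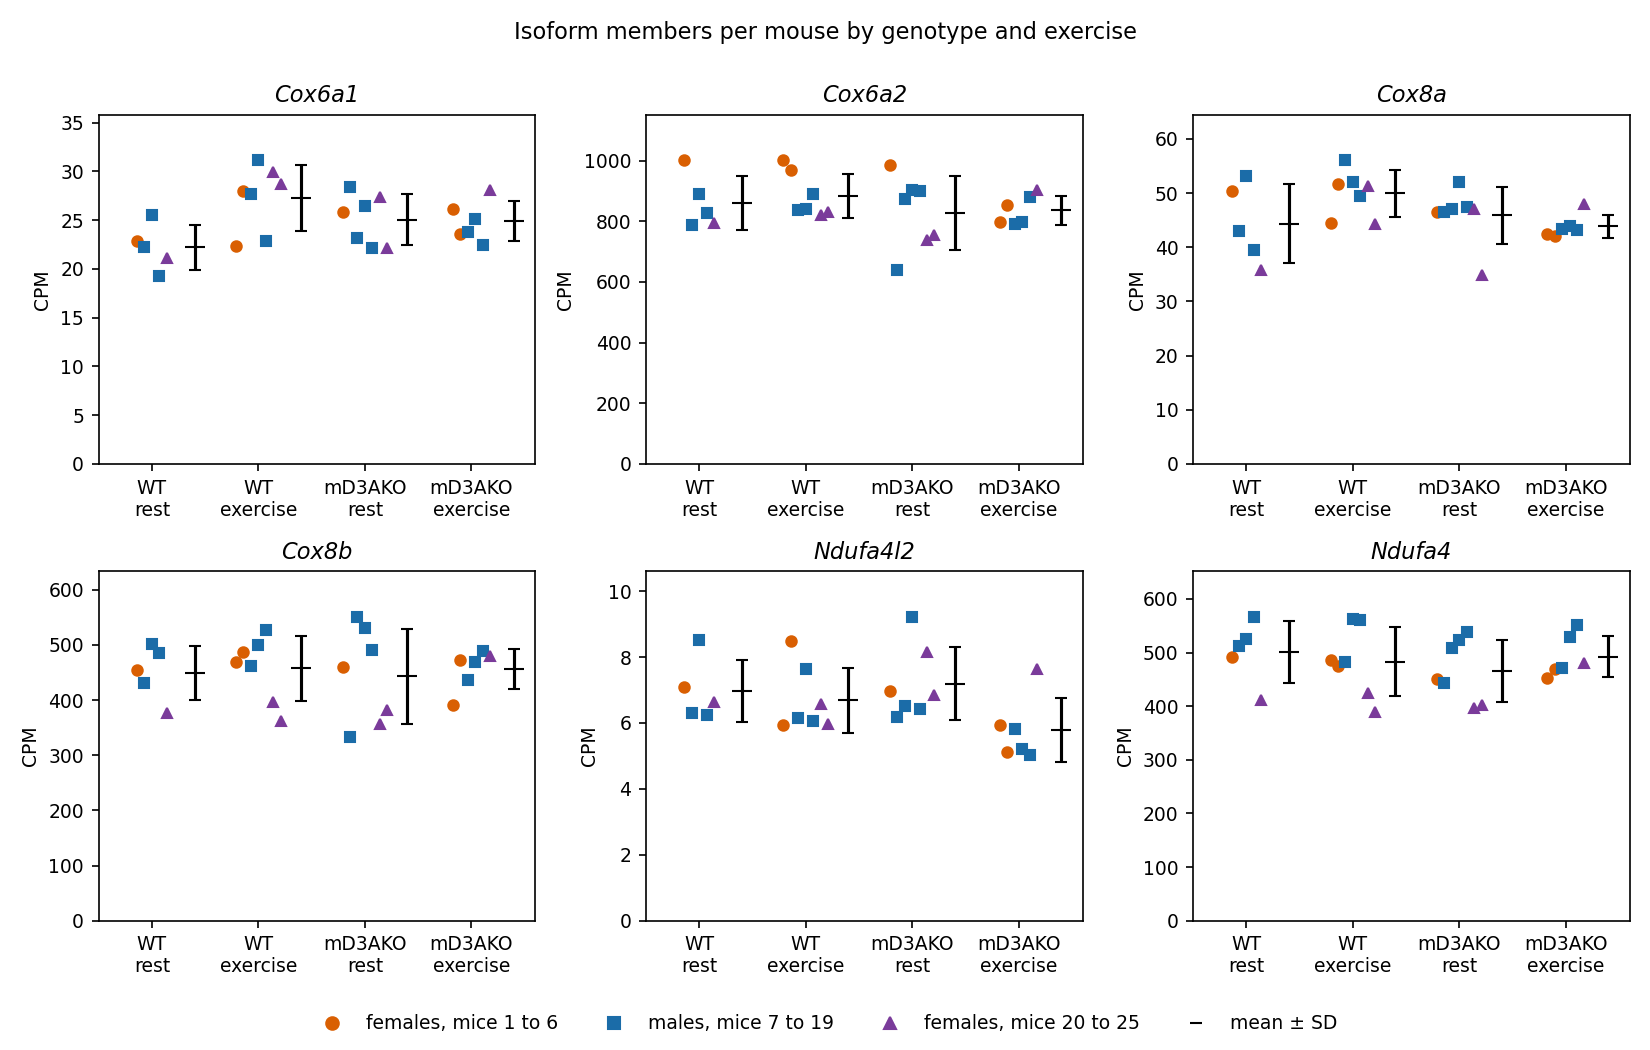
CPM per mouse of the isoform pairs *Cox6a1* and *Cox6a2*, *Cox8a* and *Cox8b*, and *Ndufa4l2* and *Ndufa4* in the 4 groups, with mean ± SD. Levels of *Cox6a1* in WT mice lie at 19.3 to 25.5 at rest and 22.3 to 31.2 after exercise, while the ranges of the muscle isoform *Cox6a2* overlap in all groups.

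Of 20 tested regulators of OXPHOS genes, 4 rose, 1 fell and 15 were not called after exercise, where 10.4% of all genes were called. *Ppargc1a*, a coactivator of mitochondrial biogenesis, lay at 30.8 to 36.2 CPM in WT mice at rest and 58.3 to 113 CPM after exercise, ranges that do not overlap (3.24% of all genes in WT mice). In mD3AKO mice it lay at 34.1 to 58.1 CPM at rest and 54.2 to 111 CPM after exercise, and these ranges overlap through mouse 15 at rest and mouse 3 after exercise, where 2.24% of all genes had ranges that do not overlap. No member had such ranges in either genotype. Over both genotypes *Ppargc1a* rose by 1.10 ± 0.12 on the log2 scale (adjusted p 1.42e-07, edgeR). The fatty acid receptor *Ppara* rose by 1.09, the corepressor *Nrip1* by 0.63 and *Pprc1*, a relative of *Ppargc1a*, by 0.27, and the coactivator *Ppargc1b* fell by 0.21. *Esrra*, *Nrf1* and *Tfam*, which bind nuclear or mitochondrial OXPHOS genes, gave 0.060, 0.081 and 0.017 and were not called. Of the assembly factors, *Tmem186* of complex I rose by 0.18, and 0 of 13 for complexes II, III and V and 0 of 20 for complex IV were called. The citric acid cycle (0 of 14), the list of cytochrome c, *Ndufab1* and coenzyme Q synthesis (0 of 13) and 8 mitochondrially encoded subunits (0 called) gave no call either. Reads over mt-Co2, mt-Atp8, mt-Atp6, mt-Co3 and mt-Nd4l were 0 to 9 over all libraries, so these 5 genes were not tested.

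Markers of other cells were also compared after exercise, where 10.4% of all genes were called. Of 5 endothelial genes 3 fell, *Kdr* by 0.58, *Emcn* by 0.27 and *Cdh5* by 0.23. Of 3 satellite cell genes 2 fell, *Myf5* by 0.46 and *Pax7* by 0.45, while *Chodl* stood at 0.13 and was not called. The summed endothelial level was 326 to 453 CPM in rested and 279 to 368 CPM in exercised mice. None of the 7 slow and 8 fast fibre genes was called. In whole muscle, a bulk sample, fewer cells of a type and less RNA per cell cannot be told apart, and the part of these shifts in the members' values was not tested.

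The second comparison asked whether loss of DNMT3A in muscle altered the members. None of the 84 was called between genotypes by edgeR or DESeq2 (0.269% of all genes by edgeR), and 0 had an unadjusted p under 0.05 (6.23%). The median log2 fold change was -0.0046 (all genes 0.0070), with 35 members above 0 and 49 below (8733 and 7607 of all genes). For 82 members the 95% interval stayed within the same 0.32, and the exceptions were *Cox6b2* and *Atp5l*. The lowest p values belonged to *Cox7a2l* at -0.083 ± 0.050, *Ndufa7*, an accessory complex I subunit, at -0.070 ± 0.049, and *Cox4i2* at -0.12 ± 0.097, with adjusted p of 0.912, 0.949 and 0.965 by edgeR. *Cox7a2l* had medians of 99.4 and 104 CPM in rested and exercised WT mice and 97.5 and 97.1 CPM in mD3AKO mice, with overlapping ranges.

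At rest 0 of 84 members were called between genotypes (0.0918% of all genes) and 0 had an unadjusted p under 0.05 (3.65%). The median there was -0.035 (all genes 0.0083), with 65 members below 0 (7611 of 16340 genes). The lowest p was that of *Cox6a1* at 0.18 ± 0.089 (unadjusted p 0.0572 by edgeR), followed by *Atp5l* at -0.24 and *Atp5e*, the epsilon subunit of ATP synthase, at -0.13. After exercise 0 were called (0.11% of all genes), and 1 had an unadjusted p under 0.05 (5.51%), with a median of 0.020. That member was *Cox8a* at -0.19 ± 0.086 (adjusted p 0.884, edgeR), which had a median of 51.3 CPM (44.2 to 56.1) in exercised WT mice and 43.3 CPM (42.0 to 48.0) in exercised mD3AKO mice. Next came *Ndufa4l2* at -0.21 and *Cox6a1* at -0.13. DESeq2 called 0 in both comparisons. Among the other pathway and marker lists described above, *Pax7* was the 1 gene called between genotypes, at 0.48 in favour of mD3AKO.

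The third comparison asked whether the response to exercise differed between genotypes. For none of the 84 members was the difference called, nor was it for any of the 16340 genes (0%), by edgeR or DESeq2. At an unadjusted p under 0.05 there was 1 member (2.47% of all genes). It was *Cox6a1*, with a response lower by 0.31 ± 0.12 on the log2 scale in mD3AKO mice (unadjusted p 0.018, adjusted p 1 by edgeR). The next were *Cox8a* at -0.24 ± 0.13 and *Ndufa4l2* at -0.25 ± 0.17. The muscle partners of the first 2 stood at -0.025 for *Cox6a2* and 0.016 for *Cox8b*. This contrast was the least precise, since for 35 of 84 members the interval stayed within the same 0.32. The median was 0.061 (all genes -0.0072), and 72 of 84 members lay above 0, beside 7848 of 16340 genes. Among them were 9 of 9 complex III members and 33 of 37 complex I members. The members vary together, so these counts are not independent. The fit with 4 groups held no term for sex or mouse number.

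The members differed along sex, or the set of mouse numbers that goes with it. In a fit with 8 groups of sex, genotype and exercise, 85 members were tested, and 35 were called higher in males and 0 lower by edgeR. Over all 17389 genes, 8.15% were called and 5.36% were called higher in males. At an unadjusted p under 0.05 there were 71 members (22.4% of all genes). The median log2 fold change, males minus females, was 0.18 (all genes -0.0054), and 79 members lay above 0 (8472 of 17389 genes). The called members were 16 of 38 in complex I, 1 of 4 in complex II, 5 of 9 in complex III, 5 of 17 in complex IV and 8 of 17 in complex V. The complex medians were 0.18, 0.16, 0.24, 0.14 and 0.19 from I to V. Thus the differences were small, at most 1.30-fold, and spread over all 5 complexes.

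**Figure D4:**
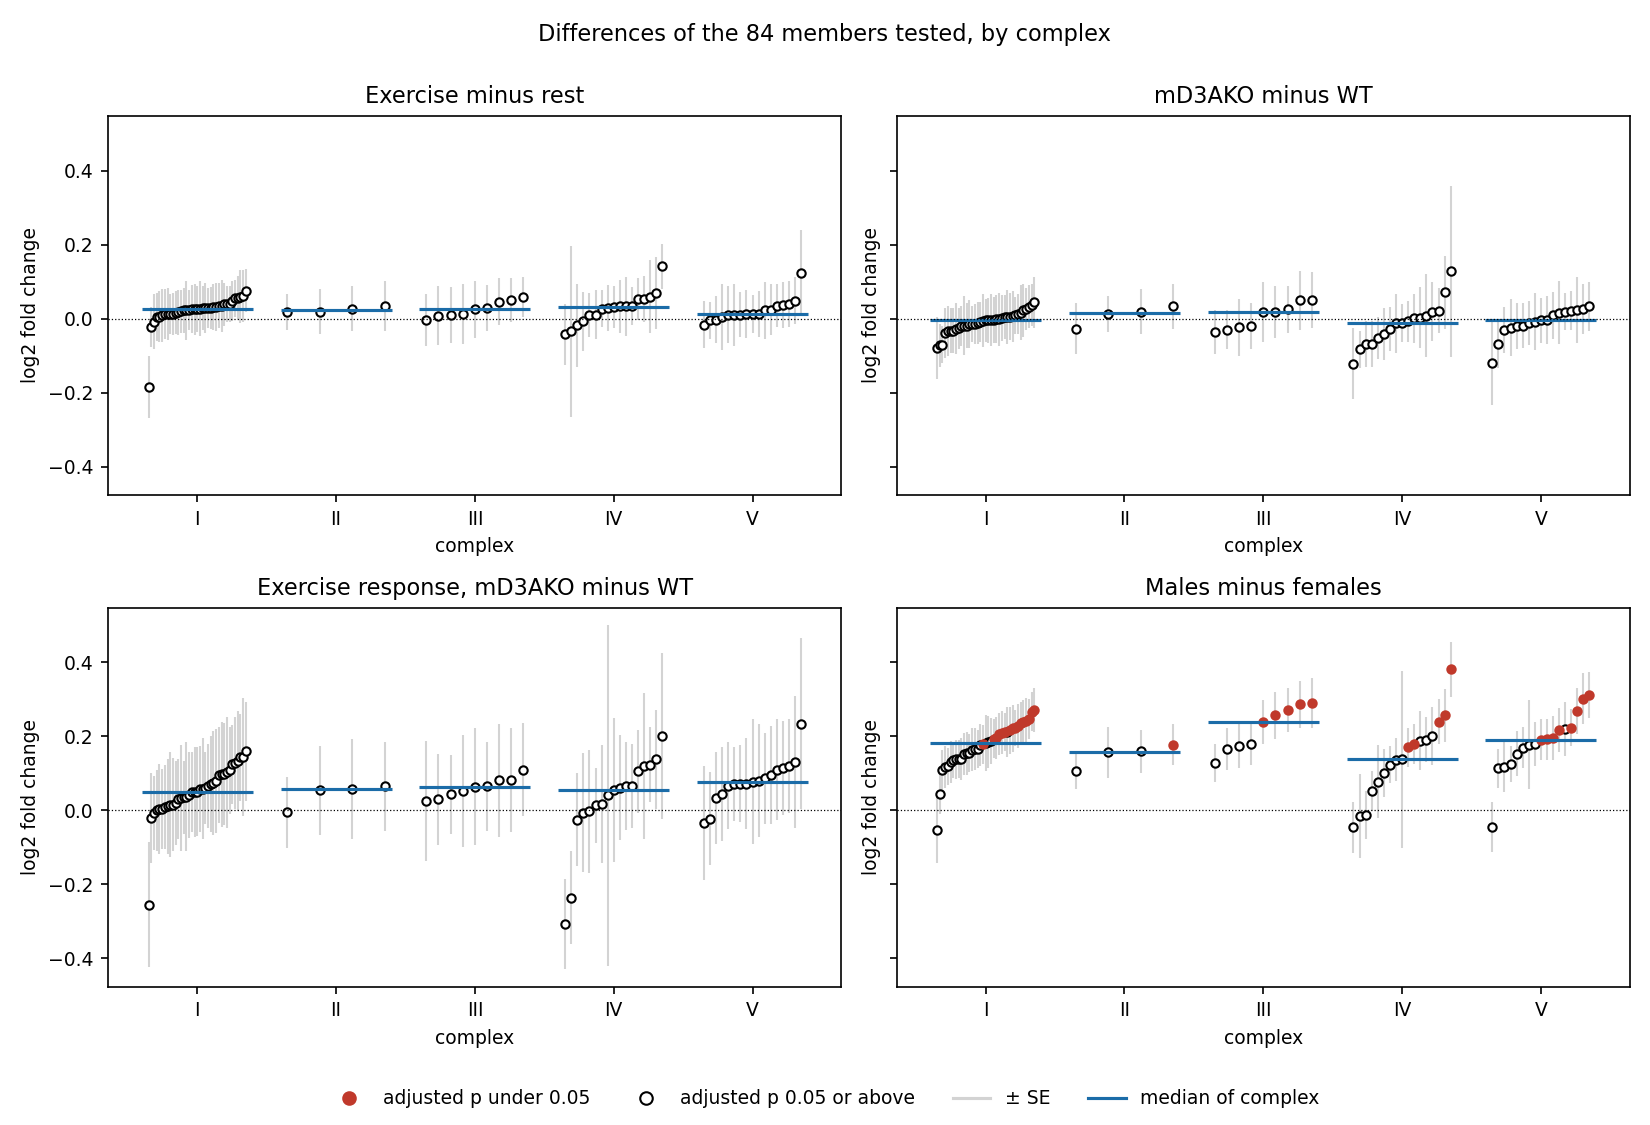
Log2 fold changes of the 84 members tested in the fit with 4 groups, by complex, for exercise, genotype, their interaction and sex (the last from the fit with 8 groups), with SE as grey lines and the median of each complex as a blue line. Filled points were called at an adjusted p under 0.05. Called members appear only in the panel for sex, where 79 of the 85 members of that fit lie above 0.

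*Cox7a1*, the muscle isoform of a small complex IV subunit, had the largest difference among the members at 0.38 ± 0.074 (adjusted p 0.00258, edgeR). Its levels were 332, 495 and 556 CPM (lowest, median, highest) in 13 males and 321, 358 and 439 CPM in 12 females. The males lay higher as a group, and the lowest male lay within the female range. In complex I *Ndufa10*, an accessory subunit, was called at 0.27 ± 0.053. *Ndufa10* ran over 340, 397 and 432 CPM in males and 291, 341 and 379 CPM in females. *Ndufa4* differed by 0.25 and *Ndufs4*, an accessory subunit whose loss is known to cause mitochondrial disease, by 0.22. In complex II the 1 called member was the anchor *Sdhd* at 0.18 ± 0.055 (adjusted p 0.0466, edgeR).

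In complex III both electron carriers encoded here were called. *Cyc1*, the gene of cytochrome c1, differed by 0.29 ± 0.063 and *Uqcrfs1*, the Rieske iron-sulfur protein, by 0.27 ± 0.060, and the core proteins *Uqcrc1* and *Uqcrc2* by 0.29 and 0.24. *Cyc1* ran over 405, 479 and 522 CPM in males and 326, 388 and 449 CPM in females. In complex V the c subunit gene *Atp5g3* led at 0.31 ± 0.063 (adjusted p 0.00361, edgeR), with 538, 601 and 657 CPM in males and 397, 510 and 574 CPM in females. *Atp5g1* differed by 0.27, *Atp5s* by 0.30 and the small proteolipid *Atp5mpl* by 0.22. In no member did the male and female ranges separate, beside 0.253% of all genes tested.

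Below 0 lay 6 members, *Ndufs6b*, *Ndufa4l2*, *Atp5g2*, *Cox6a2*, *Cox6c2* and *Cox6a1*, and none was called. Of the muscle isoforms of complex IV, *Cox7a1* was called, *Cox8b* stood at 0.19 ± 0.079 (adjusted p 0.15, edgeR), and *Cox6a2* at -0.045 with a 95% interval from -0.19 to 0.098. Likewise *Atp5g2* stood at -0.045 (interval -0.19 to 0.096) beside 0.31 and 0.27 for *Atp5g3* and *Atp5g1*. A difference between the sexes in the response to exercise was called in 0 of the 85 members by edgeR and DESeq2 (0.046% of all genes), 0 had an unadjusted p under 0.05 (3.28%), and the median difference was -0.080. The lowest p was that of *Atp5g3* at -0.20 ± 0.13, followed by *Uqcrq* at -0.19 and *Cox6b2* at -0.69.

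Females 20 to 25 had a lower median than females 1 to 6 in 82 of 85 members. The sum over all members was 30253, 33039 and 33505 CPM (lowest, median, highest) in females 1 to 6, 27374, 28132 and 33440 CPM in females 20 to 25, and 28756, 35344 and 37403 CPM in males. Females 20 to 25 thus lay low apart from 1 mouse, number 23, and the lowest male was mouse 7. In 69 of 85 members the medians rose in the order females 20 to 25, females 1 to 6, males. Between both female sets, 3 of 85 members were called by edgeR, all lower in females 20 to 25, against 2.23% of all genes called and 1.04% called lower. They were *Ndufc2* at -0.27, *Atp5h*, subunit d of the stalk, at -0.26, and *Atp5j*, coupling factor 6, at -0.24. The median was -0.16 (all genes 0.010), and 81 members lay below 0 (8154 of 16895 genes). Without mouse 23 this count was 47, and without mouse 3 it was 14. Without mouse 1, 2, 4, 20, 21, 22, 24 or 25 it was 0, without mouse 6 it was 1, and without mouse 5 it was 2. In the 8 fits with 0 calls the member median stayed at -0.135 to -0.168, close to the -0.16 of all females.

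The sex count depends on which females enter. Females 1 to 6 against all males gave 0 called members of 84 by edgeR (3.61% of all genes), with a lowest adjusted p of 0.102, and 13 had an unadjusted p under 0.05 (18.2%). The median was 0.089 beside 0.025 over all genes. Females 20 to 25 against all males gave 46 of 85 (7.28% of all genes) and a median of 0.25 beside 0.00075. The log2 difference of *Cox7a1* was 0.33 with females 1 to 6 alone, that of *Atp5g3* 0.17 and that of *Cyc1* 0.18, and none was called. A single member, *Atp5g3*, had ranges that did not overlap between males and females 20 to 25 (1.27% of all genes). Within rested mice edgeR called 0 of 84 members and 0.941% of all genes, and 44 members had an unadjusted p under 0.05 (13.4% of all genes). The member median there was 0.21 beside -0.0079 over all genes. Within exercised mice it called 0 of 84 and 1.36% of all genes, 30 had an unadjusted p under 0.05 (14.9%), and the median was 0.13 beside -0.016. Leaving out mouse 20 gave 13 calls and leaving out mouse 7 gave 54. Counts also moved by over 1.5 times without mouse 3 or 21 (20 each) and without mouse 14, 16 or 24 (22 each).

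**Figure D5:**
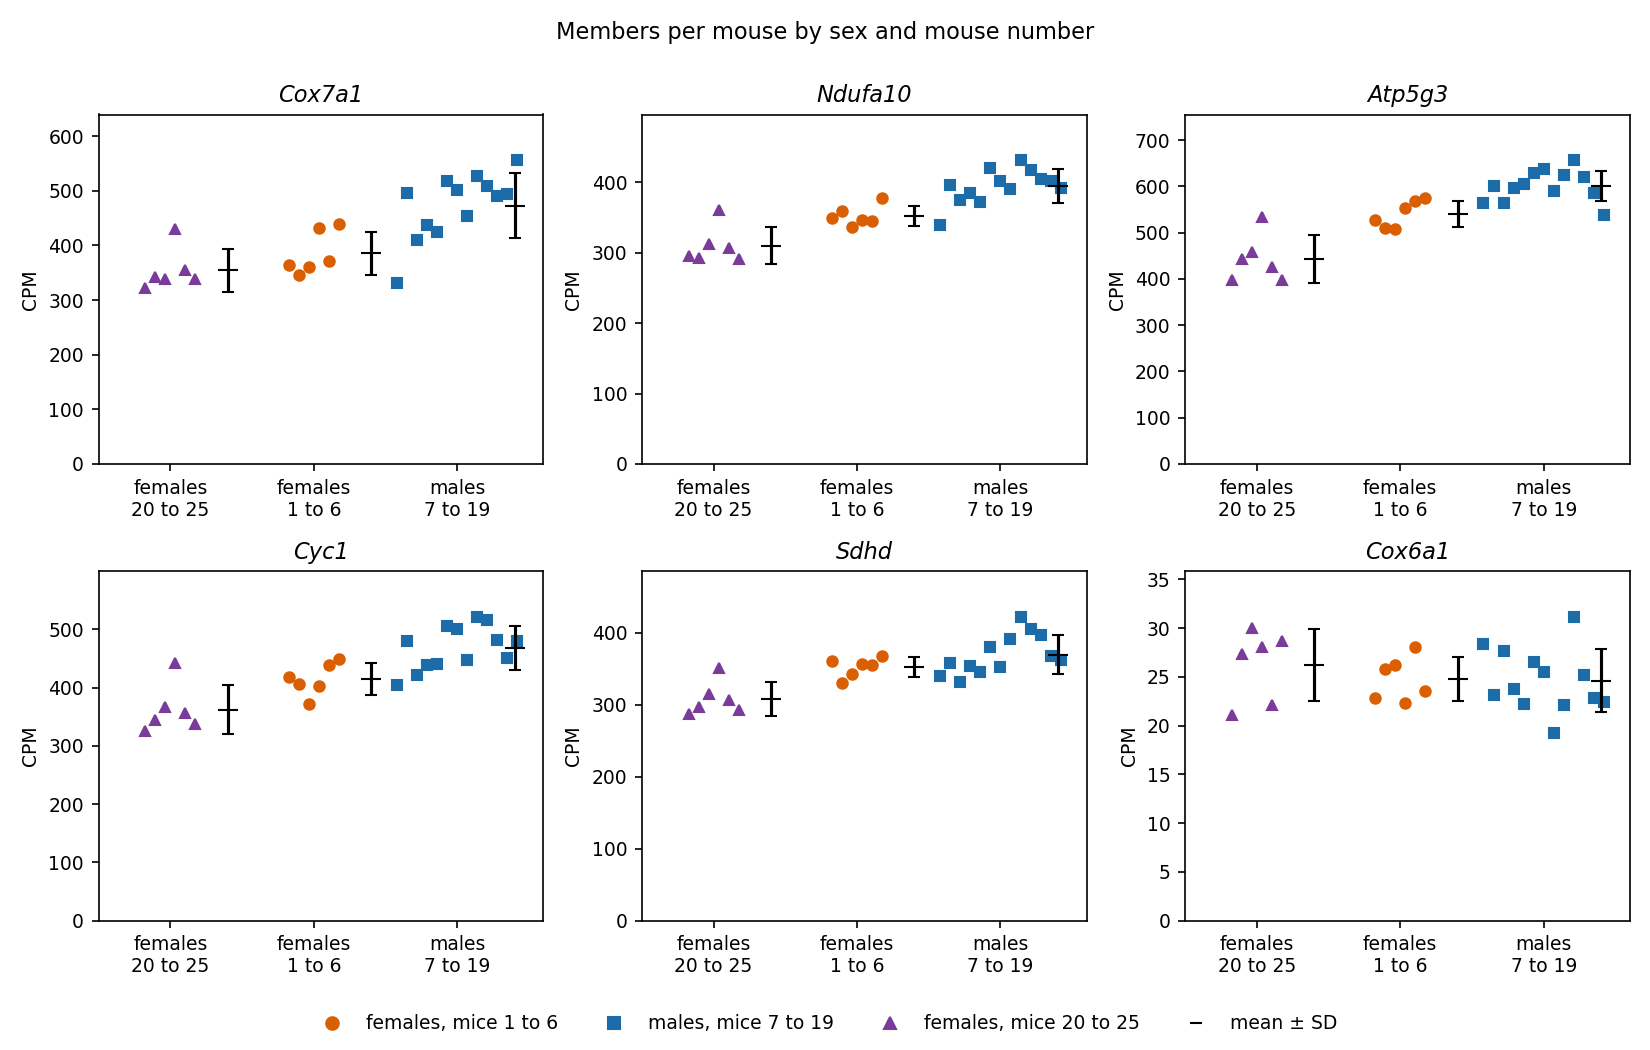
CPM per mouse of 5 members called between the sexes and of *Cox6a1*, which was not, in females 20 to 25, females 1 to 6 and males, with mean ± SD. The first 5 genes rise from left to right in their means, and in *Atp5g3* all males (538 to 657) lie above all females 20 to 25 (397 to 535).

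Other mitochondrial genes were also compared between the sexes, where 5.36% of all genes were called higher in males. The citric acid cycle had 8 of 14 genes higher, and 13 of the 14 lay above 0. The lowest p values in this list, by edgeR, were those of 3 genes. They were *Idh3a* of isocitrate dehydrogenase at 0.38, *Dlst* of 2-oxoglutarate dehydrogenase at 0.25 and *Sucla2* of succinyl-CoA ligase at 0.27. The list of cytochrome c, *Ndufab1* and coenzyme Q synthesis had 6 of 13 higher, among them *Coq7* at 0.25, *Pdss1* at 0.36 and *Ndufab1* at 0.28. Assembly factors of complex I had 2 of 15 higher, *Foxred1* at 0.18 and *Ndufaf1* at 0.19. Those of complexes II, III and V had 3 of 13 higher, *Atpaf2* at 0.20, *Atpaf1* at 0.25 and *Ttc19* at 0.21, and those of complex IV 3 of 20, *Coa5* at 0.26, *Cmc2* at 0.25 and *Taco1* at 0.25. No gene of these lists was called lower. Among the 20 regulators *Esrra*, a nuclear receptor that binds OXPHOS promoters, was the 1 called gene, at 0.35 ± 0.068 (adjusted p 0.00272, edgeR). *Ppargc1a* stood at 0.19, *Nrf1* at -0.029 and *Tfam* at -0.074, none of them called.

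Of 8 tested mitochondrially encoded subunits 5 were higher in males, with *mt-Co1* at 0.44, *mt-Nd1* at 0.51 and *mt-Cytb* at 0.46. Their sum was 28053 to 37383 CPM in females and 33130 to 58211 CPM in males, where the highest was mouse 15, the library with 43.2% ribosomal and mitochondrially encoded RNA. Without mouse 15 there were 6 of 8 called higher, and the median went from 0.47 to 0.39.

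These lists also depend on the females that enter. With females 1 to 6 only against all males, 0 genes were called higher in each of them, 1 of 20 complex IV assembly factors and 2 of 20 regulators were called lower, and 3.61% of all genes were called. Between females 20 to 25 and 1 to 6 the medians were -0.16 for the citric acid cycle, -0.18 for the cytochrome c list, and -0.13, -0.16 and -0.18 for the assembly factors of complex I, of complexes II, III and V and of complex IV. In these lists 1 gene lay above 0, of the 13 in the cytochrome c list, beside the member median of -0.16. Called lower there (1.04% of all genes) were the assembly factors *Ndufaf8* at -0.44, *Uqcc2* at -0.28, *Sdhaf4* at -0.25 and *Coa6* at -0.41, besides *Ndufab1* at -0.26 and *Suclg2* at -0.24. The mitochondrially encoded subunits had a median of -0.032, with 3 of 8 above 0 and 0 at an unadjusted p under 0.05 by edgeR.

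Fibre type markers differed with sex as well. Over all 17389 genes, 1418 (8.15%) were called between the sexes, and 932 (5.36%) were called higher in males. Of 7 slow fibre genes 5 were called lower in males, with *Myh7* at -0.49. Of 8 fast fibre genes 5 were called higher, with *Tnni2* at 0.42 and *Myh1* at 0.50. The slow fibre sum was 26999 to 34623 CPM in males and 32247 to 51373 CPM in females. The fast fibre sum was 31093 to 47158 and 24028 to 38022 CPM in the same order. Median slow fibre sums were 41611 CPM in females 1 to 6, 36215 CPM in females 20 to 25 and 31178 CPM in males. The fast fibre medians were 35510, 34930 and 41402 CPM in that order. *Cidea*, a brown fat marker also found in other cells, was higher in males at 0.49. *Ucp1*, the other gene of the brown adipocyte list, had 3 reads over all libraries and was not tested. Of the satellite cell genes, *Chodl* and *Pax7* were lower at -0.38 and -0.30, while *Myf5* stood at -0.051 and was not called. No marker of endothelium, fibroblasts, immune cells, adipocytes, Schwann cells or blood was called. Between females 20 to 25 and 1 to 6 the medians were 2.01 for 5 adipocyte genes and 1.54 for 4 Schwann cell genes, with 0 called in both lists. Median fibroblast sums were 1155 CPM in females 1 to 6 and 1874 CPM in females 20 to 25. In the same order they were 307 and 376 CPM for endothelium and 34.5 and 52.1 CPM for immune cells. The brown adipocyte sums, nearly all *Cidea*, went the other way, at 6.63 and 3.51 CPM. In each of these lists the ranges of both female sets overlapped. The part of these shifts in the members' values was not tested.

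Across the 25 mice the members varied together. The median Pearson correlation of log2 CPM over 3486 pairs of members was 0.80, and 0.755 with the means of the 8 groups taken out, where all members share the same libraries and scaling. Of 84 members, 74 had a correlation above 0.7 with the mean of the others, and *Ndufb9* was highest at 0.98. The 8 members under 0.5 were *Cox6a1* (-0.20), *Cox4i2* (-0.17), *Ndufa4l2* (0.013), *Cox6c2* (0.23), *Atp5g2* (0.31), *Cox6b2* (0.34), *Cox8a* (0.40) and *Atp5l* (0.40). Of these, 6 are minor isoforms of their families, *Cox6b2* among them with 0.0412% beside *Cox6b1*, and all 8 had a mean level of 46.2 CPM or less. With group means out *Cox4i2* was lowest at -0.33 and *Cox6a1* stood at -0.27. *Cox6a2* had 0.52 over all mice and 0.88 with group means out.

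Promoters are shown as a description, since the members vary together and *Cox6a1* does not follow. A link between promoter letters and this pattern was not tested. RefSeq promoters (GRCm38.p6) were found for 66 members, with 71 starts, and the 250 bases before each start were searched on both strands for the letters of 4 motifs, TGCGCA (NRF1), CCGGAAG (GABP), AAGGTCA (ERR) and ATGGCGG (YY1). A stretch could count for more than 1 motif, and in the promoters printed the capitals of different motifs do not overlap. At least 1 of them stood in 38.0% of the member promoters and in 17.8% of all 32851 promoters of that length, or 21.3% of the 20104 promoters of protein-coding genes. NRF1 letters were in 19.7% of member promoters, 6.43% of all and 8.25% of protein-coding ones. GABP letters were in 16.9%, 6.91% and 9.29%, ERR letters in 7.04%, 4.08% and 3.56%, and YY1 letters in 7.04%, 2.21% and 2.62%, in the same order. A match is a description of letters and not a site of binding.

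The following 3 promoters, with motif letters in capitals, belong to the member with the lowest correlation with the others over all mice (*Cox6a1*, chr5:115348959-115349208, minus strand), to the called c subunit gene (*Atp5g3*, chr2:73911327-73911576, minus strand) and to the member with the largest difference between the sexes (*Cox7a1*, chr7:30183921-30184170, plus strand):
Cox6a1: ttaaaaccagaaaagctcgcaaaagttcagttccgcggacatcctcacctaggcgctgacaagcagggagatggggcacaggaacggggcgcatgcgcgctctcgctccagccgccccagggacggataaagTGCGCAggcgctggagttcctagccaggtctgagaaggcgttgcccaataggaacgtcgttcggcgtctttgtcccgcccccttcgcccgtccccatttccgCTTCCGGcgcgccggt
Atp5g3: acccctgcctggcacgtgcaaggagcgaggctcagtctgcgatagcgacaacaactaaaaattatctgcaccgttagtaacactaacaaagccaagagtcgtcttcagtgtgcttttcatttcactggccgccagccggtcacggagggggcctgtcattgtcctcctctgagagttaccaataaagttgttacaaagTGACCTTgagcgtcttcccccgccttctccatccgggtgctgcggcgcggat
Cox7a1: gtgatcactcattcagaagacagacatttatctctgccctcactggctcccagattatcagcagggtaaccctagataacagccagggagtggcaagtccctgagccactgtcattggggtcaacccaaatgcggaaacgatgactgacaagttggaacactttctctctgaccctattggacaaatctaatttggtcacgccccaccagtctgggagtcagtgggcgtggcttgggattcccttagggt
*Cox6a1* holds 1 NRF1 and 1 GABP match, *Atp5g3* 1 ERR match, and *Cox7a1* none of these letters in this window.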

How the data were processed

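RNA was sequenced from *soleus* of 25 mice, with 1 library per mouse. The authors deposited raw read counts per gene, and their processing notes name FastQC 0.11.5, STAR 2.5.3a, featureCounts 1.5.3 and the genome build mm10, and the study names the gene models of GENCODE release M15. Whether counting used the strand, and how reads with several matches were treated, is not given in the sources used here. Symbols came from GENCODE release M21 and matched 52403 of 52636 gene identifiers, and 0 count columns belonged to no sample. Library totals were 22671457 to 37431801 counts. Groups were taken from the labels, and p-values measure the spread between mice.

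The counts were fitted with edgeR 4.0.16 (R 4.3.3, quasi-likelihood test, TMM, filterByExpr with a minimum count of 10 and a total of 15), with p-values adjusted by Benjamini-Hochberg over all genes tested and called under 0.05. Exercise, genotype and their interaction came from 4 group means, and sex from 8. Alternatives were DESeq2 1.42.0, other scalings, no filter, sex or mouse-number terms, ribosomal and mitochondrial RNA taken out, and each mouse left out. The 67 pairs of mice of 1 group were compared by chi-square, and 0 were identical. Correlations used log2 of CPM plus 0.5. The fits were tested on simulated data.

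Members and lists were chosen with earlier results of these data known. Named were the highest and lowest member of each complex by RPKM, every isoform of the families, members not passing the filter, the called members per contrast (up to 10 per direction) or the 3 with the lowest p, up to 3 called genes per pathway list and direction, 4 regulators whatever their values, and *Dnmt3a*. Of the genes this rule names, 1 is not reported here. Other genes named, cell markers included, were chosen after their values were seen.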

Additional observations from a re-analysis of the deposited data

Results flagged for a closer look

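Of 144 values tested, taking the sum of each complex, the sum of all members and 30 members in each of the 4 groups, 8 had a single mouse far from the rest of its group by Dixon's test at 95%, where chance alone gives about 1 in 20. Mouse 20 (WT, rest, female) accounted for 4 of them. It was lowest in the sum of complex V at 10420 CPM, where the other rested WT mice had 12487 to 13321 CPM. It was also lowest in *Cox7a2* at 217 CPM (others 257 to 269), in *Ndufc1* at 116 CPM (others 144 to 155) and in *Ndufc2* at 99.7 CPM (others 122 to 131). Mouse 23 (mD3AKO, exercise, female) was highest in *Ndufa4l2* at 7.64 CPM, where the others had 5.02 to 5.94 CPM, and in *Cox8a* at 48.0 CPM, where they had 42.0 to 44.0 CPM. Mouse 24 (mD3AKO, rest, female) was lowest in *Cox8a* at 34.8 CPM (others 46.4 to 52.0). Mouse 15 (mD3AKO, rest, male), the library with 43.2% ribosomal and mitochondrially encoded RNA, was highest in *Atp5l* at 19.6 CPM (others 10.2 to 13.2).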

How the results depend on the processing

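Alternatives were computed for the log2 fold changes of up to 10 called members or, with no call, of the 3 with the lowest p in each contrast of exercise, genotype or sex, and none of these changed sign under a setting run. The other named members were not recomputed singly. The member median for exercise turned from 0.026 to -0.0026 with upper-quartile scaling, and no complex sum moved by over 1 SD. The counts of called members for exercise, genotype, their interaction, genotype at rest, genotype after exercise and sex by exercise were 0 under every setting, and 0 to 0 with each mouse left out. For exercise in WT mice DESeq2 called 1 member, *Cox6a1*, and leaving out single mice gave 0 to 1 (1 without mouse 4, 13 or 18). For exercise in mD3AKO mice leaving out single mice gave 0 to 1 (*Ndufa4l2*, without mouse 23). The sex count of 35 was 47 with DESeq2, 33 with RLE scaling, 25 with upper-quartile scaling, 27 with no filter and 33 with ribosomal and mitochondrial RNA out. Settings chosen after seeing the data gave 44 with sex as an additive term, 43 without mice 7 and 15, 46 with females 20 to 25 only, 0 with females 1 to 6 only, 0 in rested mice and 0 in exercised mice. Leaving out single mice gave 13 to 54, and for the female sets 0 to 47. The cause was not tested, and the last 4 settings hold fewer mice. Where a mouse left a group of sex, genotype and exercise with 1 mouse, it was assumed to vary like the other groups. Depth limits *Cox6b2*, with 3 to 18 reads per library. No paired analysis was possible because the mouse numbers 1 to 25 are unique and no 2 groups share one.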
